A study of Mus musculus with 2 samples.

Results

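The NF-kB transcription factors and their inhibitors are described here as 10 genes, taken by symbol from the 31253 genes of the deposited count matrices. They are the 5 subunit genes Nfkb1, Nfkb2, Rel, Rela and Relb, the 4 IkB genes Nfkbia, Nfkbib, Nfkbie and Nfkbiz, and Tnfaip3, which encodes A20. The choice goes by symbol. Each symbol named 1 row, and all 10 genes reached the floor of 10 CPM (counts scaled so that every summed library has the same total) in every comparison below.

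Regulatory T (Treg) cells are CD4 T cells that express Foxp3 and restrain immune responses. They were sorted from mouse spleen as CD4+FoxP3+ cells and profiled with a droplet-based 3' kit that counts unique molecular identifiers (UMIs). One library came from Foxp3YFP-CreKmt2d+/+ mice (written +/+), the other from Foxp3YFP-CreKmt2dfl/fl mice (written fl/fl), and each was a single pool of cells from 3 mice. Mice of both genotypes carry a Cre recombinase fused to yellow fluorescent protein at Foxp3, so Cre is made in Foxp3-expressing cells, and the fl/fl mice also carry floxed alleles of Kmt2d, a histone H3K4 methyltransferase gene. With 1 library per genotype there is no replicate check and no test, and every interval below covers counting error alone. A difference between the libraries cannot be told apart from a difference between pools of mice or sample handling.

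NF-kB subunits pair into dimers that IkB proteins hold in the cytoplasm. Signals from antigen receptors, costimulatory receptors of the TNF receptor family and cytokine receptors activate the IkB kinase complex, IkB proteins are degraded, and the dimers enter the nucleus. Nfkbia and Tnfaip3 are themselves transcribed in response to NF-kB and shut the response down. In Treg cells, c-Rel, the product of Rel, is needed for development in the thymus, and c-Rel and RelA maintain the mature and effector cells.

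Because the inhibitor genes and several subunit genes are known NF-kB targets, the DNA just before their start sites is shown first. The RefSeq windows of 250 bases before to 50 bases after the annotated start (mouse build GRCm38.p6) held 7 of the 10 genes, some with more than 1 start. Both strands were searched for the NF-kB consensus decamer. It was present for 5 genes (Nfkbia, Tnfaip3, Nfkbie, Rel and Nfkb2) and not for Rela or Nfkbib in these windows, against 9.55% of the 27025 genes with a window. The stretches below run 5' to 3' on the gene's own strand, with every match in capitals, and are cut where an annotated exon begins. For Nfkbia the stretch is chr12:55492648-55492797, minus strand, and its match begins 29 bases before the start.
Nfkbia: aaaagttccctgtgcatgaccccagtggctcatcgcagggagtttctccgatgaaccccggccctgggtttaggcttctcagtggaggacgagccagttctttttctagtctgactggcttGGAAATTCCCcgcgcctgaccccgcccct
For Tnfaip3 it is chr10:19015411-19015547, minus strand, with matches 125 and 12 bases before the first of its starts.
Tnfaip3: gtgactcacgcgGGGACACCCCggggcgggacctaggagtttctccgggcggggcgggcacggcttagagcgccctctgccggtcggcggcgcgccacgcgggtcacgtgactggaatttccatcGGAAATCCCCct
For Rel it is chr11:23770971-23771119, minus strand, where 2 matches overlap in 1 run that begins 92 bases before the start.
Rel: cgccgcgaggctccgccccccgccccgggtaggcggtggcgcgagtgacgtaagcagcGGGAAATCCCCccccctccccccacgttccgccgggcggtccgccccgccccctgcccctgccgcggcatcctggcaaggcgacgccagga
For Nfkb2, whose window lies within an annotated first exon, only 30 bases around the first 2 matches are shown, chr19:46304690-46304719, plus strand, and these overlapping matches begin 39 bases before the first of its starts.
Nfkb2: atcgtcacGGGAATTCCCCccctcgggggg
A match describes these letters and does not show binding. The stretch of Nfkbie, whose match begins 106 bases before the start, is not shown. Of the 5 genes with a match, Rel and Nfkb2 differed by more than 1.5-fold between the libraries in Treg-like cells. Nfkbia, Tnfaip3 and Nfkbie did not, as described next.

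Cells were sorted into types by marker UMIs, because the libraries held more than the labelled Treg cells. Treg-like cells, defined by at least 2 UMIs of Foxp3, Ikzf2 and Il2ra together on a T cell background without CD8 genes, numbered 4251 of 7674 single cells in +/+ and 3873 of 8445 in fl/fl. That is 55.4% and 45.9%. All 8 Treg markers kept out of the gate, among them Ctla4, were at 20 CPM or more in both. They summed to 2131 and 1638 CPM, against 63.5 and 67.0 CPM in B-like cells. In conventional CD4 T-like cells they summed to 496 and 402 CPM, with 4 of the 8 at 20 CPM or more in each library. B-like cells made up 6.74% of +/+ and 15.1% of fl/fl single cells. The Kmt2d level of Treg-like cells was 73.5 CPM in +/+ and 70.6 CPM in fl/fl (log2 ratio of fl/fl to +/+ -0.057, 95% counting interval -0.15 to 0.035), but 3' UMIs do not show whether floxed exons were lost, so this does not check the deletion.

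In Treg-like cells, all 10 genes were lower in the fl/fl library, and the summed subunits differed more than the summed inhibitors. The 5 subunits summed to 1171 CPM in +/+ and 743 CPM in fl/fl, a log2 ratio of -0.66 (-0.68 to -0.63). The 5 inhibitors summed to 1918 and 1456 CPM, a log2 ratio of -0.40 (-0.42 to -0.38). Nfkb1 and Rel made up most of the first sum, and Nfkbia and Tnfaip3 most of the second. The contrast did not hold for each gene. The subunit Rela (-0.31) differed less than Nfkbia (-0.51), Nfkbib (-0.46), Nfkbie (-0.44) and Tnfaip3 (-0.34). Of the inhibitors, only Nfkbiz (-0.081) differed less than Rela. Past 1.5-fold lower were 4 of the 10 genes (Nfkb1, Nfkb2, Rel and Relb), where 9.43% of all 7984 measured genes were. Past 1.5-fold higher were 0 of the 10, where 2.07% of all measured genes were. The median log2 ratio of the 10 genes was -0.49, while that of all measured genes was -0.14 and 72.1% of them were below 0. When the libraries were scaled to set that overall median to 0, 3 of the 10 passed, where 6.60% of all measured genes did, and the lower calls made up 66.6% of all calls in place of 82.0%.

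Among the subunits, Nfkb1, which encodes a precursor processed to a DNA-binding subunit without an activation domain, had 550 CPM in +/+ against 363 CPM in fl/fl. The log2 ratio was -0.60 (-0.64 to -0.56). It lay just past the 1.5-fold line and fell short of it when the libraries were scaled to the overall median (-0.46). Rel, which encodes the lymphoid subunit c-Rel, was at 438 and 263 CPM, a log2 ratio of -0.74 (-0.78 to -0.69). Rela encodes RelA, the main activating subunit of the canonical pathway. It was at 60.9 and 49.3 CPM, a log2 ratio of -0.31 (-0.41 to -0.20), the smallest difference among the subunits.

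The noncanonical pair stood at the lower end. Nfkb2, whose precursor is processed to the partner of RelB, had 43.1 CPM in +/+ against 23.9 CPM in fl/fl, a log2 ratio of -0.85 (-0.99 to -0.71). Relb was at 78.5 and 43.9 CPM, a log2 ratio of -0.84 (-0.94 to -0.73). Their counting intervals overlap each other and that of Rel. Reads on Nfkb2 and Nfkbib could not be told from reads on genes that overlap them on the other strand (Psd, and Ccer2 and Sirt2), since the strand setting of the counting is not given in the sources used here.

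Among the inhibitors, Nfkbia, which encodes IkB alpha, had 917 CPM in +/+ against 643 CPM in fl/fl, a log2 ratio of -0.51 (-0.54 to -0.48). Tnfaip3, whose product A20 removes and edits ubiquitin chains upstream of the IkB kinases, was at 758 and 597 CPM, a log2 ratio of -0.34 (-0.37 to -0.31). Both genes were within 1.5-fold. Nfkbib, which encodes IkB beta, was at 36.4 and 26.4 CPM, a log2 ratio of -0.46 (-0.60 to -0.32). Nfkbie, which encodes IkB epsilon, was at 26.2 and 19.3 CPM, a log2 ratio of -0.44 (-0.61 to -0.28). Nfkbiz encodes IkB zeta, a nuclear IkB that acts as a cofactor at some targets. It differed least of the 10, at 179 and 170 CPM with a log2 ratio of -0.081 (-0.14 to -0.022), and its direction flipped to 0.057 when the libraries were scaled to the overall median.

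The share of cells with at least 1 UMI was compared after each cell had been thinned to 2500 UMIs, and 39 Treg-like cells of +/+ and 14 of fl/fl were too shallow for this. Rel was seen in 53.1% (51.5 to 54.6%) of thinned +/+ Treg-like cells and in 39.5% (38.0 to 41.1%) of fl/fl ones. Nfkb1 was seen in 66.7% and 54.8%, and Relb in 16.8% and 10.1%. Tnfaip3, at 78.7% and 73.4%, was seen in 20.6% and 20.7% of B-like cells at the same depth. Free RNA gives UMIs in cells that do not express a gene and was not measured apart. Ctla4, a Treg marker, was at 41.1 and 48.4 CPM in B-like cells against 878 and 860 CPM in Treg-like cells. Before thinning, median depths were 5551 and 6559 UMIs in Treg-like cells and 4931 and 4387 UMIs in B-like cells, and Rel was seen in 73.0% of +/+ and 65.6% of fl/fl Treg-like cells. Nfkbiz was seen in 31.7% and 30.8% of thinned Treg-like cells. The average thinned Treg-like cell held UMIs of 3.65 of the 10 genes in +/+ and 3.05 in fl/fl. In conventional CD4 T-like cells the same averages were 2.65 and 2.60.

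Resting and effector Treg-like cells were separated by whether the summed UMIs of a resting marker set that includes Ccr7, Lef1 and Tcf7 or those of Icos, Klrg1, Itgae, Maf, S100a4 and Cxcr3 were higher. There were 2564 resting and 1271 effector cells in +/+, and 3020 and 707 in fl/fl. In resting cells 3 of the 10 genes (Nfkb2, Rel and Relb) were more than 1.5-fold lower in fl/fl, where 8.81% of all measured genes were, and the members' median log2 ratio was -0.44. Of these 3, Rel fell short of the line when scaled to the overall median (-0.48) and Nfkb2 when cells were thinned (-0.37). In effector cells 5 of the 10 were (Nfkb1, Nfkb2, Rel, Relb and Nfkbia), where 8.79% of all measured genes were, and the median was -0.55. Nfkbia fell short there when scaled to the overall median (-0.57). Rel was at 516 CPM in +/+ effector cells and 271 CPM in fl/fl ones, a log2 ratio of -0.93 (-1.02 to -0.83). In resting cells it was at 396 and 261 CPM, a log2 ratio of -0.60 (-0.65 to -0.55). Nfkb1 was at 656 and 370 CPM in effector cells (-0.83, -0.91 to -0.75) and at 493 and 360 CPM in resting cells (-0.45, -0.50 to -0.41). With resting and effector cells weighted alike, 4 of the 10 genes were more than 1.5-fold lower in Treg-like cells, where 7.34% of all measured genes were.

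**Figure D1:**
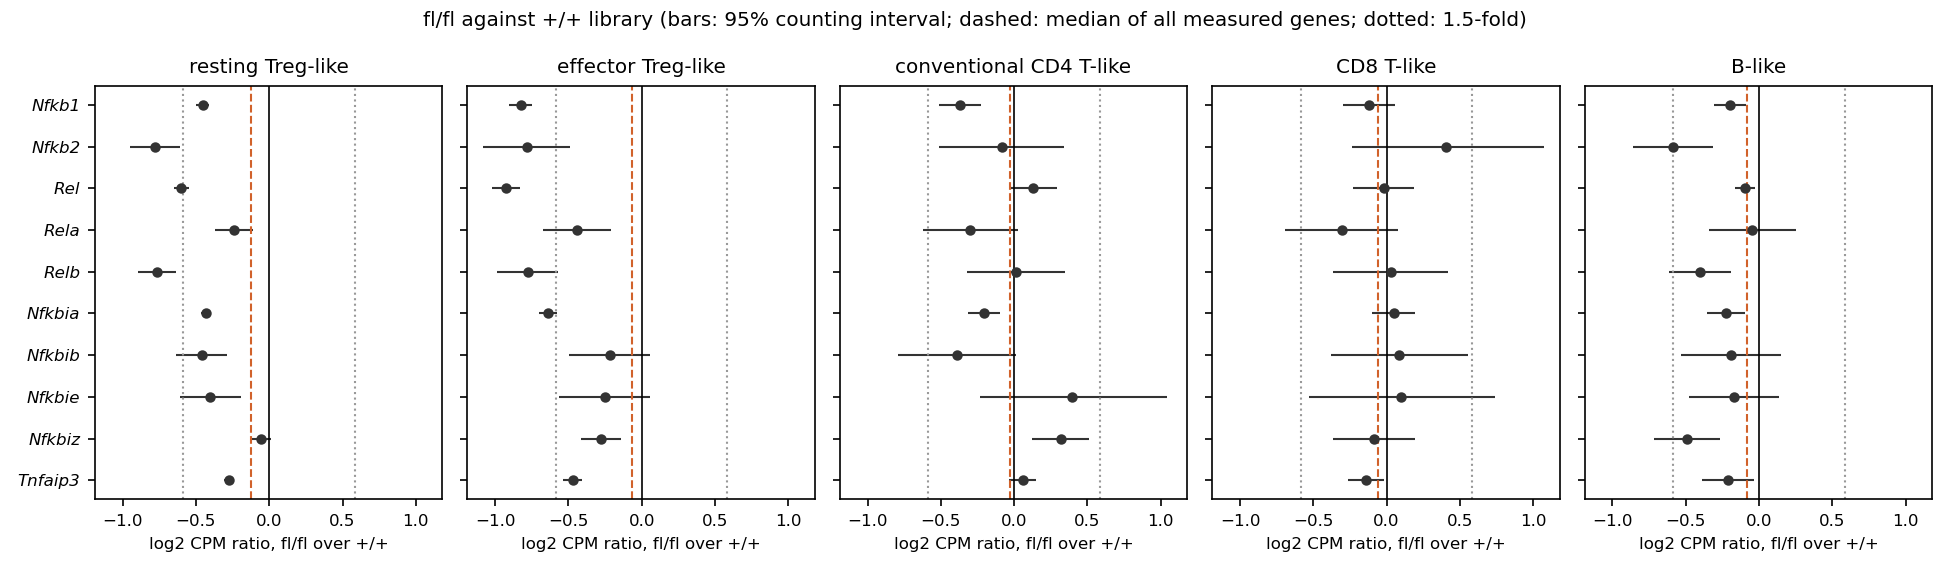
Log2 ratio of CPM, fl/fl over +/+, for each gene (rows) in 5 gated cell types (panels), with 95% counting intervals, the median of all measured genes (dashed) and 1.5-fold either way (dotted). In both Treg-like types and in B-like cells every point lies left of 0. In conventional CD4 T-like and CD8 T-like cells the points lie on both sides.

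Effector and resting cells were also compared within each library. Nfkb1 had a log2 ratio of effector to resting of 0.41 (0.36 to 0.46) in +/+ and of 0.039 (-0.037 to 0.11) in fl/fl. Rel had 0.38 (0.32 to 0.44) and 0.057 (-0.032 to 0.15). Nfkbia had 0.23 (0.19 to 0.27) and 0.024 (-0.033 to 0.081), and Tnfaip3 had 0.19 (0.15 to 0.24) and -0.0060 (-0.066 to 0.053). For these 4 genes the intervals of the libraries do not overlap, and in fl/fl each includes 0. They are the members with the most counts and so the narrowest intervals. The share of all measured genes whose intervals do not overlap was not counted. Nfkbiz had 0.0035 (-0.090 to 0.097) and -0.22 (-0.34 to -0.099), so its intervals did not overlap either and its fl/fl level was lower in effector than in resting cells. Rela had 0.22 and 0.020, with overlapping intervals. Relb (0.52 and 0.50) and Nfkb2 (0.32 and 0.32) had similar ratios in both libraries, though Nfkb2 in fl/fl was at -0.023 when the cells were thinned. Nfkbie (0.57 and 0.72) and Nfkbib (0.36 and 0.61) had ratios at least as large in fl/fl, with overlapping intervals.

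Measured against all genes, the median log2 ratio of effector to resting cells was 0.34 for the members and 0.14 for all measured genes in +/+, and 0.048 and 0.20 in fl/fl. Past 1.5-fold higher in effector cells were 0 of the 10 in +/+ (11.6% of all measured genes), 2 in fl/fl, Nfkbib and Nfkbie (16.4%), and 0 in both libraries (9.55%). The effector gate did not hold the same mixture in both libraries. Its CD8 T marker list, with Cd8a and Cd8b1 at 0 by the gate, summed to 628 CPM in +/+ and 1686 CPM in fl/fl, and its resting Treg list to 1420 and 2199 CPM. The NK list summed to 223 and 457 CPM, the neutrophil list to 113 and 4.31 CPM, and the Treg list to 2679 and 1881 CPM. Their part in the difference was not tested.

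**Figure D2:**
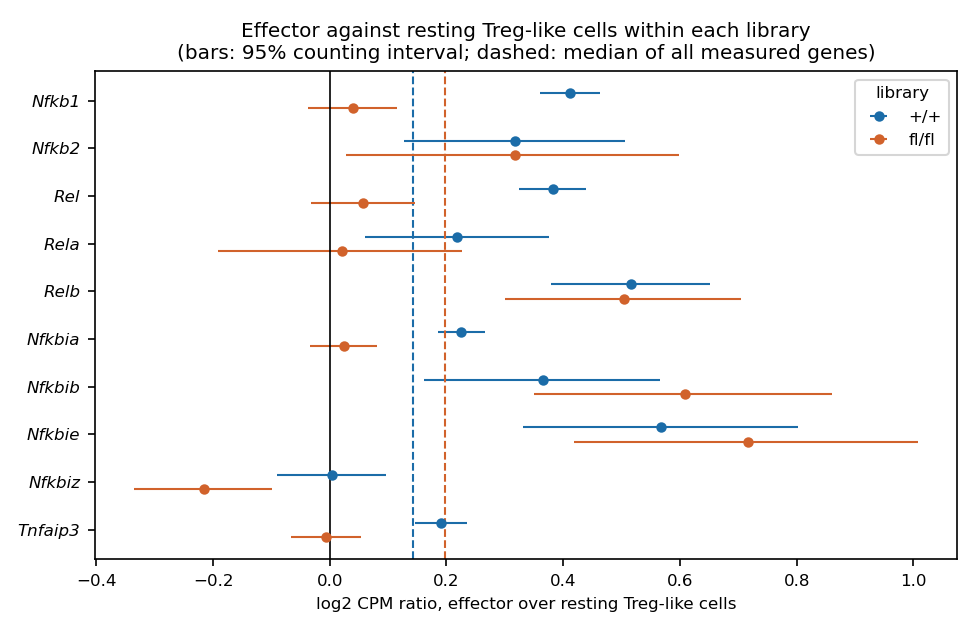
Log2 ratio of CPM, effector over resting Treg-like cells, for each gene in the +/+ and fl/fl libraries, with 95% counting intervals and the median of all measured genes in each library (dashed). Nfkb1, Rel, Nfkbia and Tnfaip3 lie at 0.19 to 0.41 in +/+ and near 0 in fl/fl, and Relb and Nfkb2 nearly coincide.

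Other quantities moved with the comparison of the libraries. Immediate-early and dissociation genes, which rise within minutes of stimulation or tissue handling, summed to 8491 CPM in the Treg-like cells of +/+ and 6029 CPM in those of fl/fl. Of 18 such genes 16 were measured. Of these, 7 were more than 1.5-fold lower in fl/fl (9.43% of all measured genes) and 0 were higher (2.07%). Their median log2 ratio was -0.46. Dusp1, a MAP kinase phosphatase gene, had a log2 ratio of -1.20 and Zfp36, which encodes an mRNA decay factor, -1.03. Jun (0.36) and Rhob (0.16) were at the other end. Neutrophil markers summed to 217 and 70.1 CPM in Treg-like cells, against 77619 and 84711 CPM in neutrophil-like cells, and their part in the results was not tested. The resting Treg list summed to 3004 and 4532 CPM and the effector Treg list to 730 and 449 CPM.

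Treg-like cells were therefore split by their share of immediate-early UMIs into 3 bins with the same limits in both libraries. The bins held 748, 1452 and 2051 cells in +/+ and 1960, 1256 and 657 in fl/fl, and the median share was 0.843% and 0.582% of a cell's UMIs. Nfkbia was at 692, 843 and 1090 CPM from the low to the high bin in +/+ and at 533, 701 and 942 CPM in fl/fl. With the bins weighted alike its log2 ratio was -0.27, down from -0.51 in the plain sum. Tnfaip3 was at 598, 728 and 861 CPM in +/+ and at 550, 629 and 707 CPM in fl/fl, and its ratio with the bins weighted alike was -0.21. Every member but Rel had levels that went up from the low to the high bin in both libraries, and Rel in fl/fl was at 249, 280 and 277 CPM. The share of all measured genes that went up in this way was not counted. Nfkb1 was at 468, 537 and 601 CPM in +/+ and at 345, 379 and 400 CPM in fl/fl.

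For Rel and Nfkb1 the weighting of the bins moved the ratio less than for Nfkbia. Rel had log2 ratios of -0.63, -0.63 and -0.75 in the low, middle and high bin, and -0.67 with the bins weighted alike. Nfkb1 had -0.44, -0.51 and -0.59, and -0.52 with the bins weighted alike, which is short of 1.5-fold. Relb had -0.84, -0.69 and -0.71. With the bins weighted alike, 3 of the 10 genes were more than 1.5-fold lower, where 8.21% of all measured genes were, and Nfkbiz turned to 0.072.

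**Figure D3:**
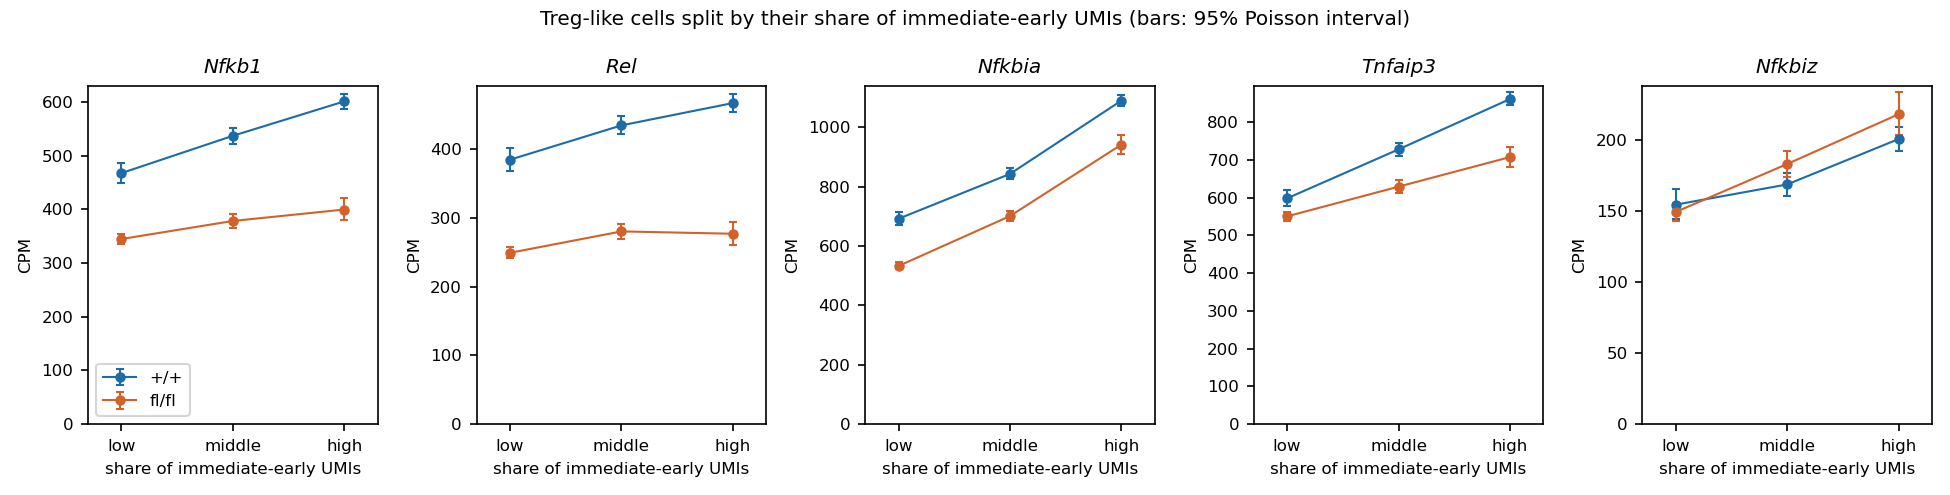
Level in CPM (axes start at 0) of 5 genes in Treg-like cells of the low, middle and high bin of immediate-early share, by library, with 95% Poisson intervals. Nfkb1, Rel, Nfkbia and Tnfaip3 lie lower in fl/fl in each bin, and the Nfkbiz lines cross.

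Conventional CD4 T-like cells, which had at least 1 UMI of Cd4 and none of Foxp3, Ikzf2 or Il2ra, numbered 580 in +/+ and 628 in fl/fl. Among them 0 of the 10 genes were more than 1.5-fold lower in fl/fl (3.68% of all measured genes), 5 were below 0 (54.0% of all measured genes), and the median log2 ratio was -0.037 for the members and -0.025 for all measured genes. Rel was at 178 and 194 CPM, a log2 ratio of 0.13 (-0.036 to 0.29), and Relb at 46.1 and 46.4 CPM. When cells were thinned before gating, Rel turned to -0.25 and 2 of the 10 genes were more than 1.5-fold lower, where 8.71% of all measured genes were. Nfkb1 was at 272 and 211 CPM, a log2 ratio of -0.37 (-0.51 to -0.22). Nfkbiz was at 119 and 148 CPM, a log2 ratio of 0.32 (0.12 to 0.51), but at -0.074 when cells were thinned before gating. This gate is not a matched control for Treg cells. Its Ctla4 level was 246 and 208 CPM, its CD8 T marker list (with Cd8a and Cd8b1 at 0 by the gate) summed to 479 CPM in +/+ and 2487 CPM in fl/fl, and its neutrophil list to 202 and 4.44 CPM.

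Further gated types are given in turn. In CD8 T-like cells 0 of the 10 genes passed 1.5-fold lower (6.07% of all measured genes), with a median log2 ratio of 0.0040. In cycling T-like cells 0 passed (7.51% of all measured genes), with a median of -0.23 and 9 of the 10 below 0 (58.2%). After thinning, the cycling gate held 99 and 160 cells, 5 of the 10 genes passed where 22.9% of all measured genes did, and the median was -0.49. The neutrophil list of cycling T-like cells summed to 4049 CPM in +/+ and 204 CPM in fl/fl, and its part in these values was not tested. In B-like cells, as in Treg-like cells, all 10 genes were below 0 (63.3% of all measured genes), and the median was -0.20. There 1 passed, Nfkb2 (5.29% of all measured genes), at 52.7 and 35.1 CPM. Its log2 ratio of -0.59 was barely past the line and fell short when scaled to the overall median (-0.51), thinned (-0.47) or held to 5% mitochondrial UMIs (-0.52). In NK-like cells 1 passed, Relb (15.9% of all measured genes), on 43 and 27 UMIs. The median was -0.13, with 9 of the 10 below 0 (57.9%). In dendritic-like cells 0 passed (13.5%), with a median of -0.054 and 7 of the 10 below 0 (51.7%). There Nfkb1 was at -0.54 (-0.76 to -0.33), Rel at -0.35 (-0.51 to -0.19) and Relb at 0.23 (-0.020 to 0.48). In monocyte or macrophage-like cells 0 passed lower (21% of all measured genes), with a median of 0.059. There 1 gene, Nfkb2, passed 1.5-fold higher (11.3%), on 40 and 39 UMIs. Over all T cells 2 of the 10 passed, Nfkb2 and Relb (5.83% of all measured genes), with a median of -0.43. No difference between cell types in these ratios was tested.

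Across cell types the genes fell into different orders, which are described gene by gene because 3' UMI counts are not set per transcript length between genes. The 11 types with at least 50 cells in both libraries were ordered by the mean of the libraries, leaving out plasma-like cells (42 and 116). A pair of neighbours is called overlapping where the libraries' levels overlap. Rel was highest in dendritic-like cells (844 CPM in +/+, 661 in fl/fl) and B-like cells (723 and 675), then in monocyte or macrophage-like cells (566 and 591), and lowest in neutrophil-like cells (118 and 112). Of its 10 neighbouring pairs 4 overlapped. Relb was highest in dendritic-like cells (269 and 316 CPM), above every other type in both libraries, and the next, monocyte or macrophage-like cells, were at 87.9 and 81.6 CPM.

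The other subunits spread less. Nfkb1 was highest in the Treg-like types and in dendritic-like cells, whose levels overlapped with each other and with cycling T-like cells (423 and 360 CPM). It was lowest in neutrophil-like cells (174 and 149 CPM). Nfkb2 was highest in dendritic-like cells (70.2 and 68.7 CPM). Rela had the flattest profile, with a highest mean 1.72 times its lowest and 8 of 10 neighbouring pairs overlapping.

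The inhibitors did not share 1 order. Nfkbia was high in monocyte or macrophage-like (818 and 1018 CPM) and effector Treg-like cells (1011 and 651 CPM) and lowest in B-like cells (211 and 181 CPM). Nfkbiz was highest in monocyte or macrophage-like cells (571 and 648 CPM) and neutrophil-like cells (282 and 251 CPM) and lowest in B-like cells (75.9 and 54.0 CPM). Tnfaip3 was highest in the Treg-like types in +/+, at 823 CPM in effector cells. In fl/fl it was highest in Treg-like cells that were neither resting nor effector (652 CPM, 597 to 711). Conventional CD4 T-like cells of fl/fl followed (609 CPM, 583 to 636). Their counting interval overlapped those of effector (594 CPM, 572 to 616) and resting cells (596 CPM, 586 to 606). Tnfaip3 was lowest in neutrophil-like and B-like cells (112 and 96.7 CPM in the latter). Nfkbie was highest in dendritic-like cells (71.1 and 67.4 CPM) and lowest in conventional CD4 T-like and neutrophil-like cells. Nfkbib was between 24.0 and 50.2 CPM in all types but the neutrophil-like cells (11.2 and 6.69 CPM).

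**Figure D4:**
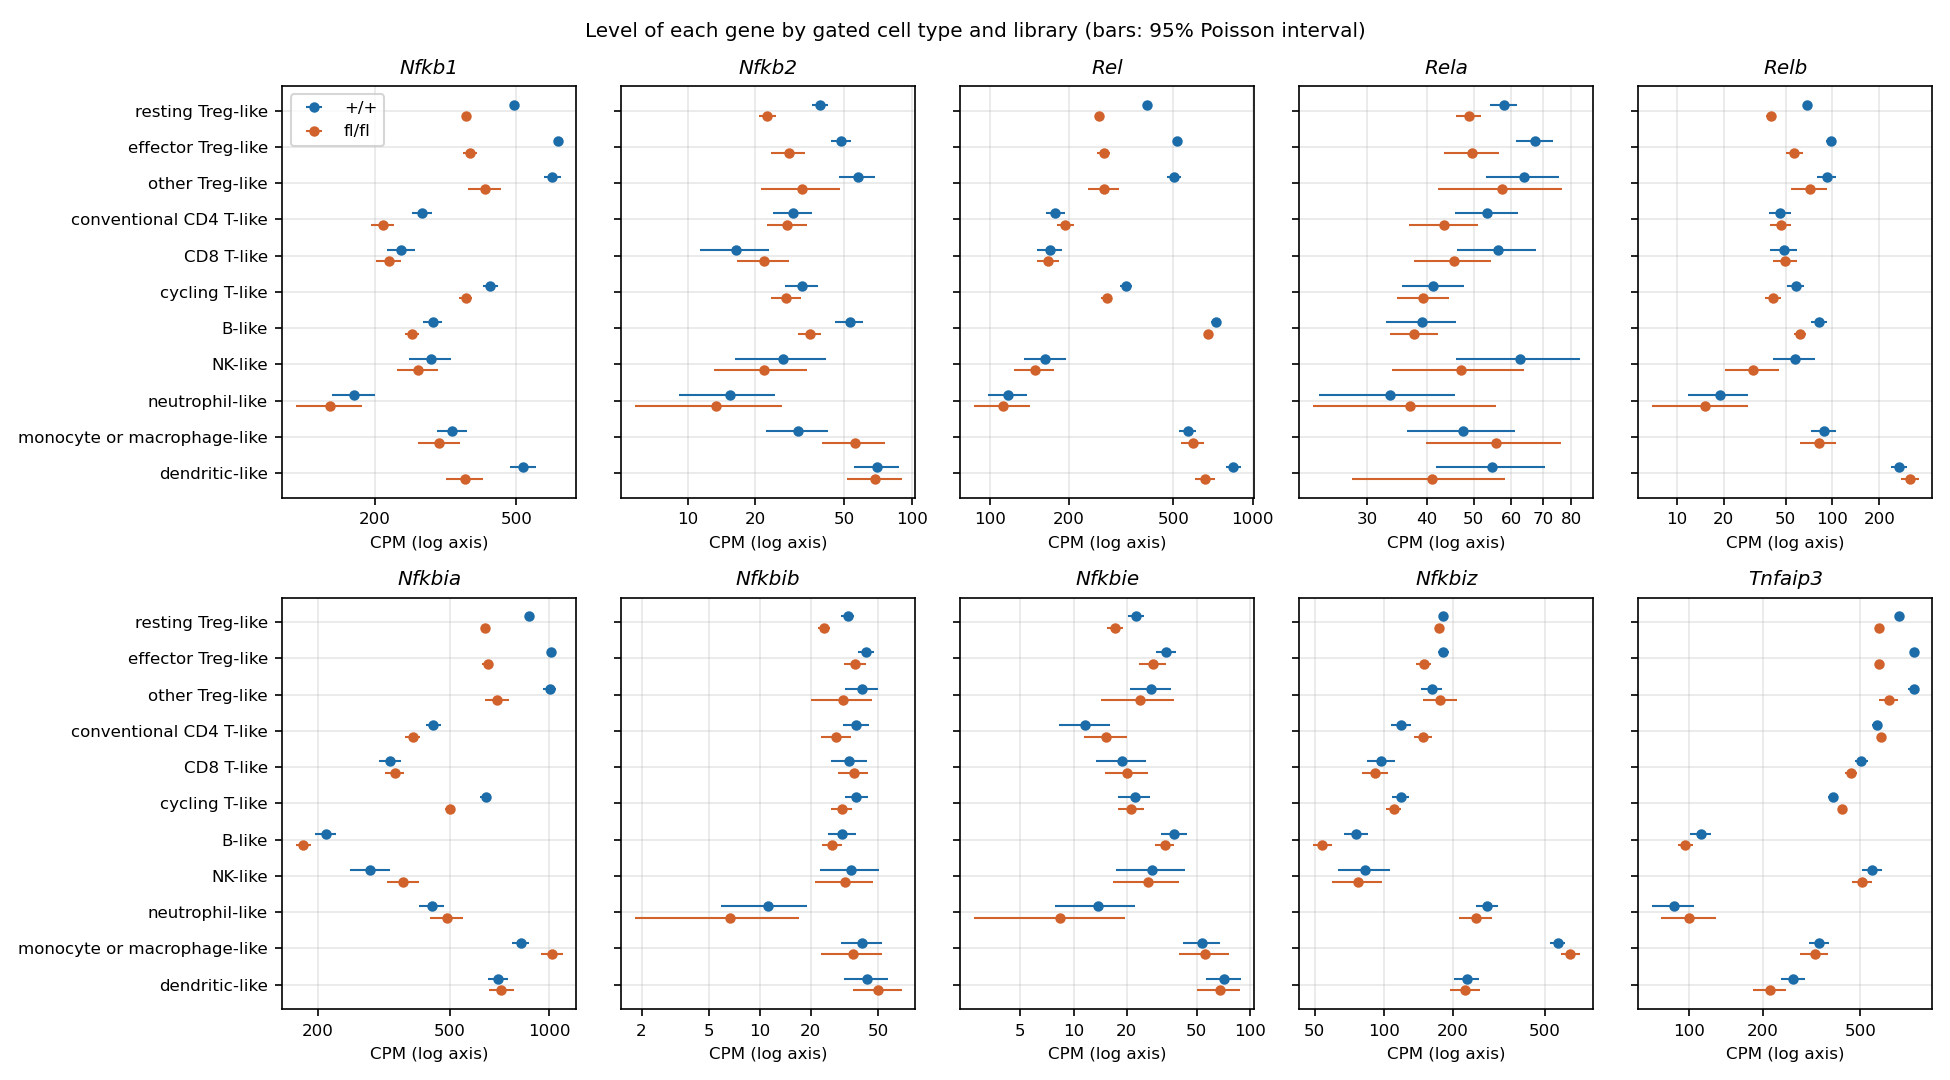
Level of each gene in CPM (log axis) in 11 gated cell types and both libraries, with 95% Poisson intervals. Relb peaks in dendritic-like cells and Nfkbiz in monocyte or macrophage-like cells in both libraries, and Rel is high in dendritic-like and B-like cells.

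Set against conventional CD4 T-like cells, Treg-like cells were more than 1.5-fold higher for 6 of the 10 genes in +/+ (9.3% of all measured genes) and for 2 in fl/fl (7.2%). Both Nfkb1 and Nfkbia passed in both libraries (4.48% of all measured genes). For Rel the log2 ratio of Treg-like to conventional CD4 T-like cells was 1.30 (1.18 to 1.43) in +/+ and 0.44 (0.32 to 0.56) in fl/fl. For Nfkb1 it was 1.02 (0.92 to 1.12) and 0.79 (0.68 to 0.90), and for Nfkbia 1.04 (0.96 to 1.12) and 0.74 (0.65 to 0.82). For Relb it was 0.77 (0.53 to 1.02) in +/+ and -0.082 (-0.32 to 0.17) in fl/fl. B-like cells were more than 1.5-fold above Treg-like cells in both libraries for 1 gene, Rel (14.8% of all measured genes). They were more than 1.5-fold below them in both for 3 genes, Nfkbia, Nfkbiz and Tnfaip3 (12.9%), with Tnfaip3 at log2 ratios of -2.76 and -2.63.

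The genes whose levels were most like each member over the 22 points (11 types in 2 libraries) are given by the Pearson correlation of log2(CPM + 10). The points share 2 libraries and differ in depth, so these values are descriptions. Nfkb2 was most like Phlpp1 (r = 0.90), Rel (0.89) and Relb (0.89), and it was the only member with other members among its 3 nearest genes. Relb was most like Zmiz2 (0.97), Rel was most like Usp6nl (0.96), and Nfkb1 was most like Ergic1 (0.94). Rela had Atxn7 (0.85) nearest. Among the inhibitors, Nfkbia was most like Pim1 (0.90), a kinase gene on the list of NF-kB targets, and Nfkbiz was most like Tnf (0.90), another gene of that list. Tnfaip3 was most like Ldlrad4 (0.96), Nfkbie was most like Aim2 (0.95), and Nfkbib was most like Hs2st1 (0.93). Nfkbia and Nfkbiz had a correlation of 0.73, and Nfkbiz and Tnfaip3 one of -0.059.

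The rest of the pathway was described by lists of receptors, of kinases and adaptors, of other regulators and of known targets. Among receptors, 10 of 18 were measured in Treg-like cells. Of these, 6 were more than 1.5-fold lower in fl/fl (9.43% of all measured genes) and 0 were higher (2.07%). Their median log2 ratio was -0.78. Il1rl1, which encodes the receptor of the alarmin IL-33, had 18.8 CPM in +/+ against 0.732 CPM in fl/fl (-4.69, -5.41 to -4.04). Tnfrsf1b, which encodes TNF receptor 2 and supports Treg expansion, was at 116 and 48.2 CPM (-1.27, -1.36 to -1.18). Cd28, the costimulatory receptor gene, had a log2 ratio of -0.11 and Tlr7 one of 0.04. The 6 receptors past 1.5-fold were Il1rl1, Tnfrsf1b, Tnfrsf4, Tnfrsf9, Tnfrsf18 and Il18r1, the last 4 of which were named after their values were seen. In effector cells alone 4 of 10 measured receptors were lower (8.79% of all measured genes) and 5 of 10 below 0 (60.0%), with a median of -0.20. Il18r1 was higher in fl/fl there (143 and 186 CPM, log2 ratio 0.38, 0.25 to 0.51).

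Kinases and adaptors differed less. Of 31 genes 29 were measured, 2 were more than 1.5-fold lower (9.43% of all measured genes) and 0 higher (2.07%). Their median was -0.18, against -0.14 for all measured genes. Traf2, an adaptor of TNF receptors, had a log2 ratio of -0.97 and Ikbke, which encodes a kinase related to the IkB kinases, -0.68. Prkcq, which encodes the protein kinase C that links the T cell receptor to NF-kB, was at 0.30 and Birc2 at 0.23. Among other regulators 18 of 20 were measured, 4 were lower (9.43% of all measured genes) and 0 higher (2.07%), with a median of -0.15. The lowest were Bcl3 (-0.86) and Nfkbid (-0.72), both atypical nuclear IkB genes like Nfkbiz, and the highest were Nfkbil1 (0.19) and Nlrc5 (0.12).

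Of 30 target genes 27 were measured, 11 were more than 1.5-fold lower (9.43% of all measured genes) and 1 was higher (2.07%). Their median log2 ratio was -0.38. Cd83, an activation marker, was at 114 and 24.0 CPM (-2.25, -2.37 to -2.12). Ebi3, which encodes a subunit of IL-27 and IL-35, was at 14.4 and 0.988 CPM (-3.87, -4.49 to -3.30). Ccl5, a chemokine gene, was the 1 above 1.5-fold at 242 and 365 CPM (0.59, 0.55 to 0.64), and Myc was at 0.57. Junb was counted in both the target and the immediate-early list, and Il2ra, also a target, was part of the Treg gate. Ccl5 was also on the CD8 T marker list, which summed to 330 and 461 CPM in Treg-like cells. The receptor gene Tnfrsf18 was also on the Treg marker list. In conventional CD4 T-like cells 22 targets were measured, with a median of 0.05. Of these, 0 were lower by 1.5-fold (3.68% of all measured genes) and 3 were higher (2.79%). Of 8 measured receptors 0 were lower and 1, Il18r1, was higher (79.6 and 173 CPM).

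**Figure D5:**
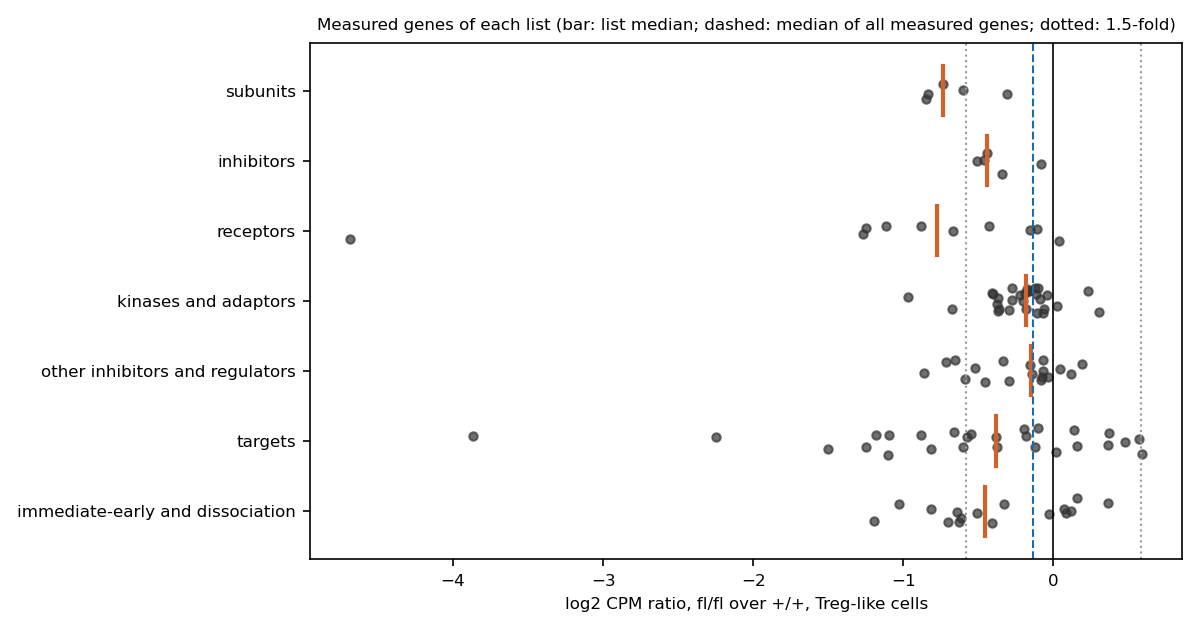
Log2 ratio of CPM, fl/fl over +/+, in Treg-like cells for each measured gene (points) of the subunits, inhibitors and pathway lists, with each list's median (bar), the median of all measured genes (dashed) and 1.5-fold either way (dotted). The medians of subunits and receptors lie farthest left, and those of kinases, adaptors and other regulators lie close to the median of all genes.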

How the data were processed

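Droplet 3' libraries of 2 pools were used. Per the submitters' processing notes, fastp, Cell Ranger 7.1.0 and Seurat 4.1.1 were used with builds mm10 and GRCm38. The authors deposited raw UMI counts per gene and barcode without normalization, for 7947 barcodes and 53680614 UMIs in +/+ and 8784 and 63989234 in fl/fl. The libraries shared 15 barcodes. Kept were barcodes with at least 500 genes and at most 10% mitochondrial UMIs. Scrublet (scanpy 1.11.5, expected rate 6%) called 0 and 2 doublets with its own threshold, so Otsu's threshold on simulated scores was used instead, a choice made after seeing this. It removed 116 and 189 barcodes.

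Types were gated by UMIs of marker genes: T cells by at least 2 of the Cd3 genes, CD8 by at least 2 of Cd8a and Cd8b1, B by at least 3 of a set that includes Cd79a, Cd79b and Ms4a1. Some genes of the gates are not reported here. In 17.1% of +/+ and 7.95% of fl/fl Treg-like cells, the resting and effector sums were within 1 UMI of each other. UMIs were summed per type and library and scaled to CPM. Ratios carry 95% exact conditional binomial intervals, levels exact Poisson and shares exact binomial ones. A gene was measured at 10 CPM or more in either sum. The intervals were tried on simulated Poisson counts. These hold the counting error that the intervals assume and no spread between cells or pools, so they do not check the intervals against such spread. The genes named beyond the members are the 2 highest and 2 lowest ratios of each list and the nearest genes by correlation. Members and lists were chosen with earlier results of these data known. Coordinates are GRCm38, and promoter windows are from RefSeq. Matplotlib 3.10.9 drew the plots. Alternatives are given at the end.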

Additional observations from a re-analysis of the deposited data

Results flagged for a closer look

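Nfkbiz was lower in fl/fl in Treg-like cells and higher in fl/fl in conventional CD4 T-like cells, with log2 ratios of -0.081 and 0.32. The difference between these cell types was not tested. Both directions flipped under 1 or more alternatives, as given in the next part.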

How the results depend on the processing

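No paired analysis was possible because each genotype has 1 library. Among the 14 alternatives run for Treg-like cells, the count of members more than 1.5-fold lower (4) was between 3 and 6, except with the line at a lower fold (8) or at 2-fold (0). The share of all measured genes was 9.43% in the main setting, 11.3% when thinned, 12.9% with at least 1 Foxp3 UMI and 6.60% when scaled. No share is given at the other fold lines, so those counts stand without one. Over all T cells the count of 2 became 0 when scaled by the median ratio (4.28% of all measured genes). It was 4 when thinned (6.30%), 0 over all deposited barcodes (5.99%), 6 at the lower fold and 0 at 2-fold. Members higher in effector cells numbered 3 in both libraries at the lower fold, and 1 when thinned, with marker sums at least 2 UMIs apart or in cells of 4000 to 8000 UMIs. In +/+ they numbered 5, 1, 1 and 2 under these. In fl/fl they numbered 0 when scaled by the median ratio, 0 at 2-fold and 1 with a 5% mitochondrial limit. No share of all measured genes is given for these alternative effector counts. Nfkbiz reversed in Treg-like cells when scaled by the median ratio (0.057) or with immediate-early bins weighted alike (0.072), in all T cells when scaled (0.021) and in conventional CD4 T-like cells when thinned (-0.074). Nfkb2 in fl/fl, effector against resting, reversed when thinned (-0.023). Further calls lost in single cell types stand beside them above. The causes were not tested. The limit of 4000 to 8000 UMIs and a gate on Foxp3 or Ikzf2 alone (4 members lower under each in Treg-like cells) were chosen after seeing the data. The share of 1.5-fold calls that were lower moved, when scaled by the median ratio, from 81.1% to 64.1% in resting Treg-like cells, from 79.8% to 65.2% in all T cells, from 67.1% to 55.8% in CD8 T-like cells and from 72.4% to 58.7% in B-like cells. Depth limits Nfkbie, Nfkbib and Nfkb2, the members with the fewest counts, and the small gates of CD8 T-like and conventional CD4 T-like cells.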
